A study of Mus musculus with 24 samples.

Results

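Interleukin 4 (IL4) was given to bone marrow-derived macrophages that lacked CITED2, and their gene expression was set against that of wild-type macrophages given the same cytokine. The comparison took the 3 KO IL4 libraries and the 3 WT IL4 libraries, 6 of the 24 libraries of the series, and every gene whose value reached 1 in 3 or more of the 24 libraries, which were 18637 of the 43629 genes in the table. All cells were from C57BL/6 mice of postnatal week 10 and were sequenced from total RNA. KO denotes the CITED2 knockout genotype and WT the wild type. The other groups were KO and WT cells that were untreated (control), given lipopolysaccharide (LPS), or given interferon gamma (IFNg), again with 3 libraries each. How the knockout was made, the IL4 dose and the time of exposure are not given in the sources used here. Since the labels leave unsaid if replicates were separate animals or cultures, each p-value reflects the spread between libraries alone, which may be technical.

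Macrophages exposed to IL4 enter the state called alternative activation. IL4 binds a receptor whose chain IL4RA recruits JAK kinases and the transcription factor STAT6, and STAT6 then turns on genes such as Arg1, Retnla, Chil3 and Mrc1. CITED2 regulates transcription without binding DNA itself: it attaches to CBP and p300, coactivators that many factors need, and can displace other factors from them, hypoxia-inducible factor 1 among these. Type I interferons act through a separate receptor and through a transcription complex that holds STAT2 and IRF9 and binds interferon-stimulated response elements, whereas IFNg has its own receptor and acts mainly at gamma-activated sequences.

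The values are gene read counts that the authors divided by 1 size factor per library, called normalised read counts here. The 6 IL4 libraries held 19398578 (KO IL4 replicate 3) to 35103064 reads (KO IL4 replicate 1), against 1478507 to 73409343 over the whole series, where the shallowest was KO LPS replicate 1. The first principal component of the 6 IL4 libraries took 80.9% of the variance and placed the KO and WT libraries at opposite ends. Markers of macrophages were abundant in both genotypes: Csf1r, the receptor of the macrophage growth factor, had 61864, 66009 and 65792 normalised read counts in the KO IL4 libraries and 61339, 61649 and 61747 in the WT IL4 libraries (log2 difference 0.07 ± 0.06, adjusted p = 0.67). Cd68, a lysosomal glycoprotein of macrophages, averaged 42803 ± 3234 in KO IL4 and 41914 ± 366 in WT IL4 cells (SD, n = 3 each).

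Cited2 itself (ENSMUSG00000039910, chromosome 10, 17723218 to 17725674, plus strand, GRCm38) was almost lost in the KO cells. It had 12.4, 14.3 and 8.52 normalised read counts in the KO IL4 libraries and 1117, 1207 and 1120.2 in the WT IL4 libraries, a level 97.7 times as high in WT. The groups were far apart, and the log2 difference was -6.52 ± 0.34 (adjusted p = 5.1e-13). Of the 17 genes listed beside Cited2 on chromosome 10, 15 were tested. Apart from Cited2, 3 of them were lower in KO IL4 cells, among them Hebp2 (-2.70), which encodes a heme-binding protein, and Ifngr1 (-0.61), which encodes the ligand-binding chain of the IFNg receptor. Tnfaip3, the NF-kB inhibitor A20, was higher (0.19), a call that did not hold without KO IL4 replicate 1. Cited2 included, 4 of the 15 were lower (26.7%) and 1 higher (6.67%), against 3.14% and 6.14% of all genes tested. In control 5 were lower and 1 higher in KO cells (background 3.05% and 4.11%). With LPS the counts were 7 and 1 (12.5% and 9.7%), and with IFNg 6 and 0 (4.21% and 4.83%).

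With IL4, 1145 genes were higher in KO cells (6.14% of those tested) and 586 were lower (3.14%), 1731 in all (9.29%). The threshold was an adjusted p below 0.05 in limma's moderated test with Benjamini-Hochberg adjustment over all genes tested. Of these, 305 were higher by a log2 difference of at least 1 and 139 lower by at least 1. The median log2 difference over all genes was 0.00. The shares of all genes tested, 6.14% higher and 3.14% lower, are the background for counts of list members with IL4. Values in brackets after a gene are log2 differences, KO minus WT. The ± after them marks the standard error from limma's fit, with 3 libraries a group and the spread estimated over all 24 libraries. It is not the scatter of the 6 IL4 libraries alone. Bulk libraries cannot tell fewer cells of a type from less RNA per cell. Interferon-stimulated genes were among those higher in KO cells, and several of the best-known genes of alternative activation were among those lower.

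**Figure D1:**
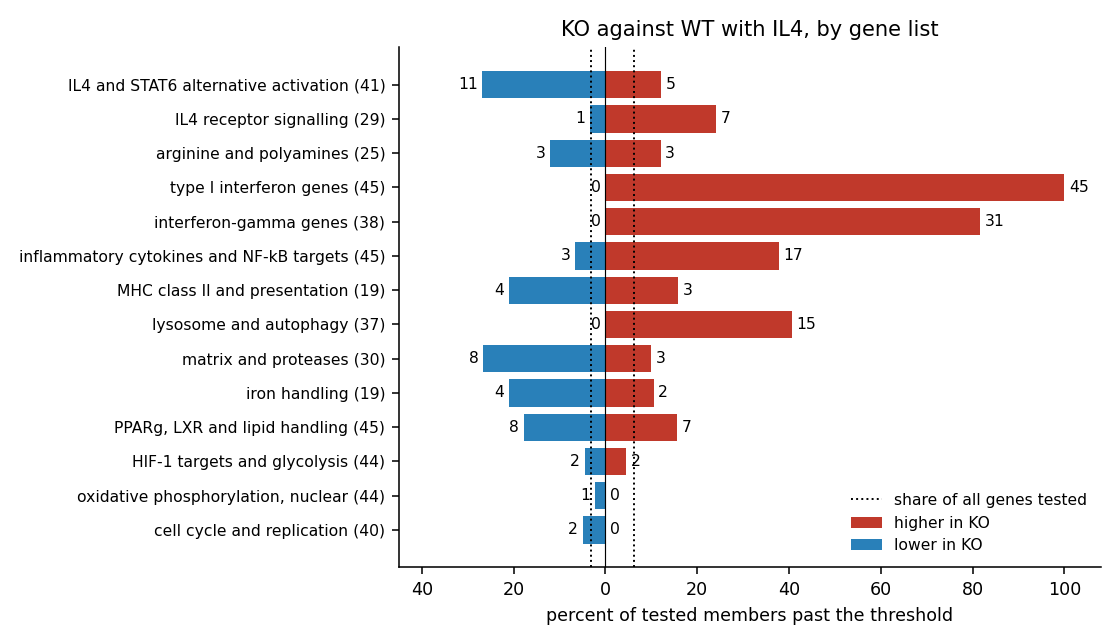
For each gene list, bars give the percent of tested members higher (right) and lower (left) in KO IL4 than in WT IL4 macrophages at an adjusted p below 0.05, with the number of genes beside each bar, list sizes in brackets and dotted lines at the shares of all genes tested. In the type I interferon list 45 of 45 members were higher, and in the alternative activation list 5 were higher and 11 lower of 41.

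Genes that IL4 itself changed were also counted by genotype difference. IL4 raised 732 genes (3.93%) and lowered 502 (2.69%) by a log2 change of at least 1, averaged over the genotypes. Of the 732 raised genes, 187 (25.5%) were higher and 75 (10.2%) lower in KO IL4 than in WT IL4 cells, with a median log2 difference of 0.07. Of the 502 lowered genes, 44 (8.76%) were higher and 64 (12.7%) lower, with a median of -0.12. Among the 17403 other genes these shares were 5.25% and 2.57%. These are descriptions with no test of the gene classes. The average includes the KO IL4 libraries, so a gene that IL4 raised in KO cells alone can enter the raised class through its genotype difference. The shares are therefore not independent of how the classes were made. For the type I interferon list, the median log2 change with IL4 was 0.42 in WT and 2.07 in KO cells.

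Type I interferon genes stood higher in KO IL4 macrophages in every one of the 45 listed members, against 6.14% of all genes tested. Their log2 differences ranged from 0.32 to 4.12, with a median of 1.58. The list held transcription factors, antiviral effectors and ubiquitin-like modifiers that interferon induces. Promoters of the 5 listed genes with the largest differences among those whose window holds the core of the interferon-stimulated response element are shown. The core searched for was GAAA, any 2 bases and GAAA again, on both strands. Each is the 250 bases before the RefSeq start site on GRCm38.p6, written 5′ to 3′ on the strand of the gene, with capitals marking that core or its reverse complement.
Ifit3 (chr19:34583279-34583528, plus strand): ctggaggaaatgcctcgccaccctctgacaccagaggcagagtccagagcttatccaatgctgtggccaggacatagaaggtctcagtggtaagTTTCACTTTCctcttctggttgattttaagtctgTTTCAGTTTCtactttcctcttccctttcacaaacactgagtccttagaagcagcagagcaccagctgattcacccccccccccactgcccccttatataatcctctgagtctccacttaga
Rsad2 (chr12:26456453-26456702, minus strand): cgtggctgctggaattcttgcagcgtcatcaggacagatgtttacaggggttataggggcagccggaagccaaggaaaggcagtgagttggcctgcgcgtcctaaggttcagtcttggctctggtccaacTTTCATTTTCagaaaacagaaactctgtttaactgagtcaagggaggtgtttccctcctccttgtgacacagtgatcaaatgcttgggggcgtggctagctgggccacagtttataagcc
Ifit1 (chr19:34640639-34640888, plus strand): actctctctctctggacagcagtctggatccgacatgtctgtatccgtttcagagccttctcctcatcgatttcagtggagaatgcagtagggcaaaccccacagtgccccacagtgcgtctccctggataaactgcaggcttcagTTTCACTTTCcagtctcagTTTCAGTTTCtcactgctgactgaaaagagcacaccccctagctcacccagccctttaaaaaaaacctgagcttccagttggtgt
Isg15 (chr4:156200819-156201068, minus strand): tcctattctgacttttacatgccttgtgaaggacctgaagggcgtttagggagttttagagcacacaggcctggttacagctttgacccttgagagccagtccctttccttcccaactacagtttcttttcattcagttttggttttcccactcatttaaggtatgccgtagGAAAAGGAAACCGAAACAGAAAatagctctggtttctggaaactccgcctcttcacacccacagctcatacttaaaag
Phf11b (chr14:59341331-59341580, minus strand): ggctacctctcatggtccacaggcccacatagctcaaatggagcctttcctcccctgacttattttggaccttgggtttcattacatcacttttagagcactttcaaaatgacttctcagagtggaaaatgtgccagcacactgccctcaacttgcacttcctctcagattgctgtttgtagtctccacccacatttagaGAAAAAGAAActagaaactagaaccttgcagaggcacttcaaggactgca
Ifit3 and Ifit1 each held 2 matches and Isg15 held 3 that overlap. Rsad2 and Phf11b held 1 each.

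Over windows of 300 bases (250 before to 50 after the start site, both strands), the core was in 945 of 27025 RefSeq promoters (3.50%). It was in 17 of the 33 type I interferon genes that matched a window by symbol (51.5%) and in 11 of 25 genes of the IFNg list (44%). Of the genes higher in KO IL4 cells 82 of 773 held it (10.6%), of those lower 11 of 428 (2.57%), and of all genes tested with a window 368 of 11423 (3.22%). This motif and that of the gamma-activated sequence were chosen after the values were seen. A match describes letters and is not evidence of binding.

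Slfn1, Ifi44 and Ifit2 had the largest differences within the type I list. Ifi44 (ENSMUSG00000028037, chromosome 3, 151730922 to 151749960, minus strand), an interferon-induced protein, had 2901, 2541 and 2591 normalised read counts in KO IL4 libraries and 165, 177 and 160.2 in WT IL4 libraries. All KO libraries lay above all WT libraries, with a 16-fold higher level (log2 difference 3.99 ± 0.12, adjusted p = 4.8e-17). Slfn1, a Schlafen family gene, had 1119, 984 and 970.2 in KO IL4 and 54.2, 66.4 and 53.7 in WT IL4 libraries (4.12 ± 0.17, adjusted p = 1.0e-14). Among the IFIT proteins, which bind viral RNA, Ifit2 (ENSMUSG00000045932, chromosome 19, 34550694 to 34576419, plus strand) had 19369, 15695 and 17137 in KO IL4 and 1375, 1452 and 1526 in WT IL4 libraries (3.58 ± 0.13), without overlap. Ifit3, whose promoter is printed above, had 1963, 1820.2 and 1865 in KO IL4 and 175, 179 and 180.0 in WT IL4 libraries (3.40 ± 0.11). Its near-identical copy can share reads with it, so its own level is uncertain.

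Other effectors followed the same direction. Rsad2, which encodes the antiviral enzyme viperin, had 4192, 3541 and 3999.9 normalised read counts in KO IL4 and 525, 541 and 529 in WT IL4 libraries (2.87 ± 0.09, adjusted p = 4.8e-17). Mx1, an antiviral GTPase, had 728, 617 and 706 in KO IL4 and 104, 101 and 103 in WT IL4 libraries (2.72 ± 0.10). Isg15, the ubiquitin-like modifier, had 1764, 1965 and 1816 in KO IL4 and 459, 476 and 503 in WT IL4 libraries (1.94 ± 0.08). None of these groups overlapped. Irf7, the transcription factor that drives interferon-alpha genes, had 3239.5, 3834 and 3416 in KO IL4 and 612, 608 and 566 in WT IL4 libraries (2.55 ± 0.11, adjusted p = 1.6e-14). Stat2 and Irf9, which encode subunits of the type I interferon transcription complex, were higher by smaller steps, with log2 differences of 1.07 for Stat2 and 0.71 for Irf9. The smallest differences in the list were those of Trim25 (0.32), a ubiquitin ligase of the RIG-I pathway, and Parp10 (0.33), a mono-ADP-ribosyltransferase.

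**Figure D2:**
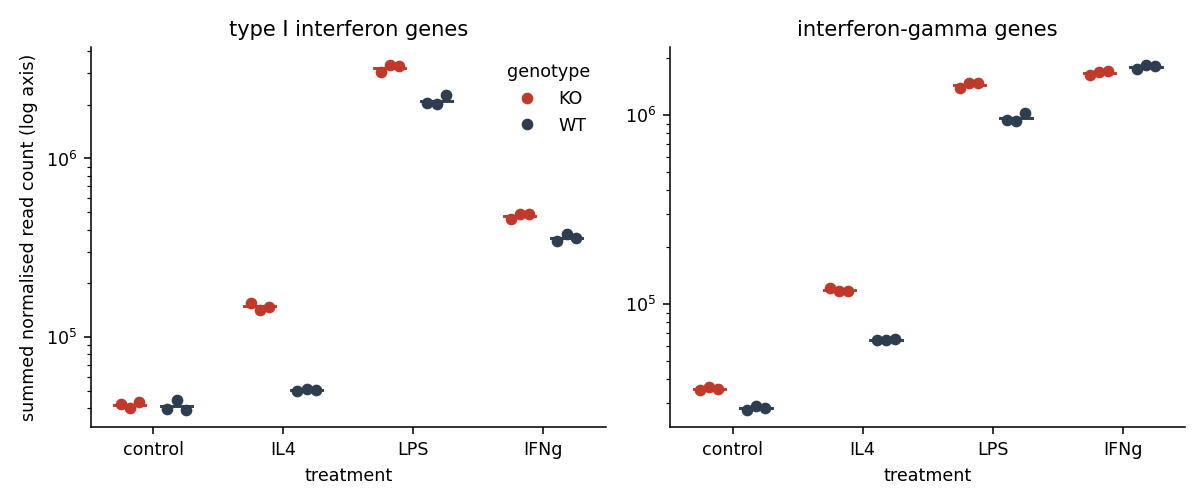
Summed normalised read counts of the type I interferon and IFNg gene lists in each library, by treatment, with KO left of WT and a log axis. With IL4 the type I sums were 142690.2 to 156086 in KO and 50055 to 50998 in WT libraries, whereas in control the ranges overlapped.

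Summed over the 45 genes, the type I list gave 156086, 142690.2 and 148083 normalised read counts in the KO IL4 libraries and 50055, 50998 and 50717 in the WT IL4 libraries. In untreated cells the sums overlapped, with 39957 to 43349.9 in KO control and 39072 to 44673 in WT control libraries. With LPS they were 3046288 to 3352712 in KO and 2005836 to 2276948 in WT libraries, and with IFNg 460861 to 487961 in KO and 343199.6 to 376325 in WT libraries. The sums of KO IL4 libraries lay below those that LPS or IFNg gave in either genotype. Counted gene by gene, KO cells were higher in 11 and lower in 7 of the 45 in control (background 4.11% and 3.05%), higher in 26 and lower in 1 with LPS (9.7% and 12.5%), and higher in 25 and lower in 1 with IFNg (4.83% and 4.21%).

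**Figure D3:**
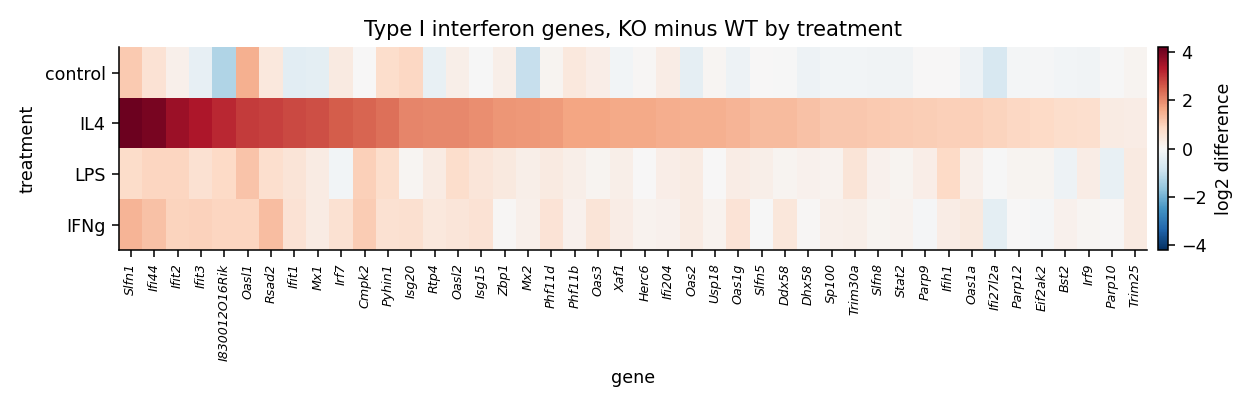
Log2 differences between KO and WT cells of type I interferon genes in each treatment, as colours, with 1 column per plotted member of the list and 1 row per treatment. The IL4 row is positive throughout, up to 4.12 for Slfn1.

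Interferon-gamma genes were higher in KO IL4 cells in 31 of 38 tested members of 39 listed, and lower in none (median log2 difference 1.15). The share higher was 81.6%, against 6.14% of all genes tested. The list and the type I list share 0 genes. Gbp4 had the largest difference within the list. It encodes a guanylate-binding protein, one of a family of GTPases that attack the vacuoles of intracellular microbes. Gbp4 (ENSMUSG00000079363, chromosome 5, 105115767 to 105139586, minus strand) had 337, 226 and 256 normalised read counts in KO IL4 libraries and 25.9, 24 and 21.7 in WT IL4 libraries (3.44 ± 0.26, adjusted p = 4.2e-10), and the libraries did not overlap. Counts of lower members were 1 by edgeR, 1 by DESeq2 and 1 at an unadjusted p below 0.05 in limma. Gbp2 had 17429, 15179.9 and 15901 in KO IL4 and 5363, 5367 and 5400.4 in WT IL4 libraries (1.59 ± 0.10). Gbp genes are close paralogs that can share reads, so single members are uncertain. Iigp1, an immunity-related GTPase, differed by 2.73. Cxcl10, a chemokine that attracts T cells, had 116, 109 and 148 in KO IL4 and 27.1, 25.7 and 30.1 in WT IL4 libraries (2.12 ± 0.22), and Cxcl9, which signals through the same receptor, differed by 1.55.

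Genes of antigen processing and control in the IFNg list moved less. Tap1, a peptide transporter for MHC class I, differed by 0.96, Psmb8, an immunoproteasome subunit, by 0.71, the transcription factor Irf1 by 0.75, and Cd274, which encodes PD-L1, by 0.77. Not past the threshold were Ciita (0.11, adjusted p = 0.62), the master regulator of MHC class II, Irf8 (0.13, adjusted p = 0.16) and Socs1 (-0.55, adjusted p = 0.13), an inhibitor of JAK signalling. The list's sums were 116658 to 121572 in KO IL4 and 64486 to 64888 in WT IL4 libraries. In control they were 34846 to 36145 in KO and 27406 to 28751 in WT libraries, and with LPS 1385055 to 1486989 in KO and 936284 to 1025784 in WT libraries, in both without overlap. KO cells were higher in 12 and lower in 3 of the genes in control (background 4.11% and 3.05%). With LPS they were higher in 22 and lower in 2 (9.7% and 12.5%). With IFNg the sums were 1627350.4 to 1708692 in KO and 1745059 to 1851355 in WT libraries. There KO cells were higher in 4 genes and lower in 3 (background 4.83% and 4.21%). The spacing of the gamma-activated sequence, TTC and GAA with 3 bases between them, was in 11 of 25 windows of this list (44%) and in 2256 of 27025 windows overall (8.35%).

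The AIM2-like receptor genes of chromosome 1 encode sensors and regulators of the response to DNA. They were higher in KO IL4 cells in 10 of 10 members, against 6.14% of all genes tested, with a median log2 difference of 1.83. This list was added after the values were seen, and its members Pyhin1 and Ifi204 also stand in the type I list. Pydc4 had 577, 484 and 505 normalised read counts in KO IL4 libraries and 26.5, 38.9 and 33 in WT IL4 libraries (3.96 ± 0.11, adjusted p = 5.3e-18), and Pydc3 had 156, 157 and 157 in KO IL4 and 12.7, 6.29 and 10.4 in WT IL4 libraries (3.92 ± 0.32). Both sets of libraries were apart, but these paralogs resemble each other and reads may be split between them. Aim2, the sensor that starts the DNA inflammasome, differed least (0.45).

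The interferon beta transcript was at or near 0 in IL4-treated cells, and the secreted protein was not measured. The gene Ifnb1 had 0.591, 0 and 1.06 normalised read counts in KO IL4 and 0.576, 0 and 0 in WT IL4 libraries. Of 23 listed interferon, receptor and sensor genes, a list added after the values were seen, 17 were tested. In KO IL4 cells 6 were higher and 2 were lower, beside 6.14% and 3.14% of all genes tested. Higher were Tlr3 (0.65), a receptor for double-stranded RNA, Mb21d1 (0.48), which encodes the DNA sensor cGAS, Tbk1 (0.43), the kinase that phosphorylates IRF3, and Tlr7 (0.42), a receptor for single-stranded RNA. Smaller rises were those of Myd88 (0.19), the adaptor of Toll-like receptors, and Tmem173 (0.18), which encodes STING. Ifngr1 had 2388, 2249 and 2209 in KO IL4 and 3507, 3584 and 3344 in WT IL4 libraries (-0.61 ± 0.06), and Ifnar1, a chain of the type I interferon receptor, fell by a smaller step (-0.18).

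Genes of alternative activation went in both directions, more often lower. Of 41 tested members of 45 listed, 11 were lower (26.8%) and 5 higher (12.2%) in KO IL4 cells, with a median log2 difference of -0.46. Of all genes tested 3.14% were lower and 6.14% higher. The list's sums overlapped, at 214834 to 240358 in KO IL4 and 215095 to 219992 in WT IL4 libraries. In control KO cells were higher in 11 and lower in 4 of these genes (background 4.11% and 3.05%). The control sums were 108769 to 118574 in KO and 76158 to 79789 in WT libraries, without overlap. IL4 raised 35 of the 41 in WT cells and 32 in KO cells, and lowered 2 in each, where 10.6% of genes were raised in WT and 12.6% in KO (lowered: 9.56% and 10.5%). Those comparisons share the IL4 libraries with the one between genotypes. Retnla and Arg1 led the lower genes. Retnla (ENSMUSG00000061100, chromosome 16, 48842551 to 48844461, plus strand), which encodes the secreted protein RELMalpha, had 20.1, 26 and 16 normalised read counts in KO IL4 libraries and 198, 215 and 209 in WT IL4 libraries. The WT level was 10 times as high, without overlap (-3.29 ± 0.34, adjusted p = 1.4e-07), and no control library of either genotype held a read. Arg1 (ENSMUSG00000019987, chromosome 10, 24915221 to 24927484, minus strand), the arginase that competes with nitric oxide synthase for arginine, had 468, 420.3 and 441 in KO IL4 and 3908, 4078 and 3539 in WT IL4 libraries (-3.11 ± 0.47, adjusted p = 4.1e-05). Rnase2a, an eosinophil-type ribonuclease, had 34.9, 28 and 19.2 in KO IL4 and 141, 205 and 179 in WT IL4 libraries (-2.66 ± 0.41).

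Abundant markers fell by smaller steps. Chil3, the chitinase-like protein Ym1, had 10326, 9095 and 8846 normalised read counts in KO IL4 libraries and 14798, 14882 and 14419.6 in WT IL4 libraries (-0.64 ± 0.10, adjusted p = 5.0e-05). Mrc1, the mannose receptor CD206, had 22899, 18967 and 20126 in KO IL4 and 28349.6, 29489 and 27261 in WT IL4 libraries (-0.46 ± 0.08, adjusted p = 0.00016). In neither gene did the libraries overlap. Also lower were the growth regulator Myc (-1.59), Chil4 (-1.52), another chitinase-like protein, the chemokine Ccl7 (-1.29), the cytokine receptor Il31ra (-1.59), Gatm (-0.74), the first enzyme of creatine synthesis, and Tgm2 (-0.58), a transglutaminase. Myc had 75.1, 67.7 and 72.4 in KO IL4 and 216, 218 and 218 in WT IL4 libraries.

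Higher in KO IL4 cells were 5 members, led by Clec7a, the beta-glucan receptor dectin-1. It had 51228, 44528 and 48392 normalised read counts in KO IL4 libraries and 25461, 25983 and 25864 in WT IL4 libraries, with no overlap (0.90 ± 0.07, adjusted p = 9.3e-10). The others were Il1rn (0.38), the interleukin 1 receptor antagonist, Atp6v0d2 (0.38), a proton pump subunit, the kinase gene Plk2 (0.33) and the transcription factor gene Tfec (0.27). The spacing that STAT6 prefers, TTC and GAA with 4 bases between them, was in 7 of the 27 windows of this list (25.9%) and in 1892 of 27025 overall (7.0%). It was in 1 of 7 windows of the members lower in KO IL4 cells. The 3 listed genes that passed the threshold and hold it are shown, with capitals at the motif.
Clec7a (chr6:129472780-129473029, minus strand): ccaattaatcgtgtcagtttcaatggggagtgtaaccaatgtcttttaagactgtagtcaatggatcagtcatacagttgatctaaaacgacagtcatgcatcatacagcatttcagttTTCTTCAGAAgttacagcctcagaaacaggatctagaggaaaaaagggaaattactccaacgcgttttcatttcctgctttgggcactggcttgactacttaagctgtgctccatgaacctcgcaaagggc
Tfec (chr6:16898442-16898691, minus strand): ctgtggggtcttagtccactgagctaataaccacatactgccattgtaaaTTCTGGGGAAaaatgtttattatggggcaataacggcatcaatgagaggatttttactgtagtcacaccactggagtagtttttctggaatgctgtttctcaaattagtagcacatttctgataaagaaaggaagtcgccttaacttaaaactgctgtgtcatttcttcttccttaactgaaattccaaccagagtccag
Retnla (chr16:48842359-48842608, plus strand): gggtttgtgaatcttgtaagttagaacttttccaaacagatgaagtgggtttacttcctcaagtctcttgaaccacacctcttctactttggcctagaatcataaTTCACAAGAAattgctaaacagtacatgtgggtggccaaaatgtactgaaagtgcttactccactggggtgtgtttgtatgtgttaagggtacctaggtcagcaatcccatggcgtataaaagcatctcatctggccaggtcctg
Clec7a and Tfec were higher and Retnla was lower in KO IL4 cells.

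**Figure D4:**
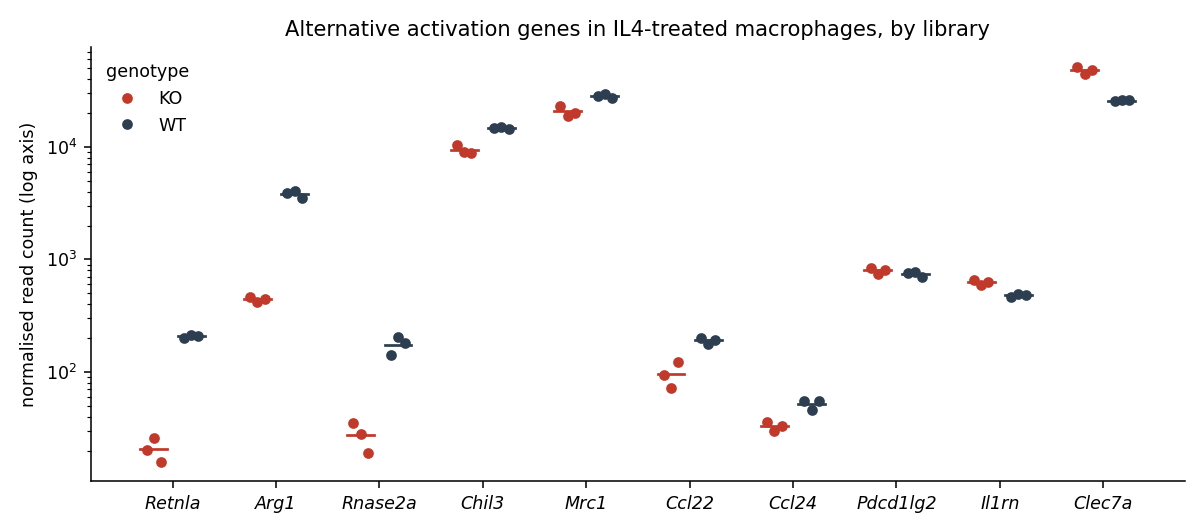
Alternative activation genes in each IL4 library, in normalised read counts on a log axis, with KO left of WT. Arg1 lay at 420.3 to 468 in KO and 3539 to 4078 in WT libraries, and Clec7a was higher in all KO libraries.

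Several markers of the list did not pass the threshold. The chemokine genes Ccl17 (-1.20, adjusted p = 0.29), Ccl22 (-1.01, adjusted p = 0.074) and Ccl24 (-0.63, adjusted p = 0.44), the lectin genes Mgl2 (-1.84, adjusted p = 0.11) and Clec10a (-1.49, adjusted p = 0.2), and Pdcd1lg2 (0.11, adjusted p = 0.98), which encodes PD-L2, gave these log2 differences. With the spread taken from the groups of the comparison alone, 19 members were lower instead of 11, and edgeR called 22 lower and 6 higher. A missed threshold does not show that these genes were alike in the genotypes.

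Of 29 IL4 receptor signalling genes 7 were higher (24.1%, against 6.14% of all genes tested) and 1 was lower in KO IL4 cells (median log2 difference -0.01). Their sums were 71652 to 74969 in KO IL4 and 62692 to 63272 in WT IL4 libraries, without overlap. Il4ra, the receptor chain, had 979, 1151 and 1064 normalised read counts in KO IL4 and 1133, 1069.9 and 1033 in WT IL4 libraries, and the ranges overlapped (-0.02, adjusted p = 0.97). Stat6 had 5755, 5783 and 5869 in KO IL4 and 5458, 5648 and 5441 in WT IL4 libraries (0.07, adjusted p = 0.38). Il13ra1, the chain that forms the second type of IL4 receptor, had 938, 762 and 858 in KO IL4 and 419, 383 and 407 in WT IL4 libraries, without overlap (1.08 ± 0.08). Parp14, a STAT6 cofactor that interferon also induces, rose (1.08), as did the kinase genes Jak2 (0.32) and Jak1 (0.16). Crebbp, which encodes the CITED2 partner CBP, was lower (-0.37). The IL4-induced transcription factor Irf4 (-0.23, adjusted p = 0.64) and Pparg (0.10, adjusted p = 0.77) did not pass the threshold.

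Inflammatory genes leaned higher: of 45 listed, 17 were higher and 3 lower in KO IL4 cells (median log2 difference 0.22). These were 37.8% and 6.67%, against 6.14% and 3.14% of all genes tested. In control the list went 4 higher and 15 lower (background 4.11% and 3.05%). Nos2, the inducible nitric oxide synthase, had 115, 141 and 124 normalised read counts in KO IL4 and 36.9, 37.2 and 30.1 in WT IL4 libraries (1.84 ± 0.27, adjusted p = 2.5e-05). The groups did not overlap. Tnf, the tumour necrosis factor gene, had 420.2, 440.4 and 459 in KO IL4 and 319.9, 302 and 291 in WT IL4 libraries (0.53 ± 0.09). Cd86, a costimulator of T cells (1.38), the chemokine Ccl5 (1.33), Ptgs2, which encodes the prostaglandin synthase COX-2 (1.14), and Tlr2, a receptor for bacterial lipoproteins (0.76), were also higher. Lower were Il10 (-1.64), an anti-inflammatory cytokine, Ccl2 (-0.96), a monocyte attractant, and Nlrp3 (-0.30), an inflammasome sensor.

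Genes of arginine use moved in both directions, with 3 of 25 higher and 3 lower, beside 6.14% and 3.14% of all genes tested. Beside the fall of Arg1 and the rise of Nos2, the mitochondrial arginase Arg2 (1.23) and Ass1 (1.53), which remakes arginine from citrulline, were higher. Ckb, a creatine kinase, was lower (-0.80).

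**Figure D5:**
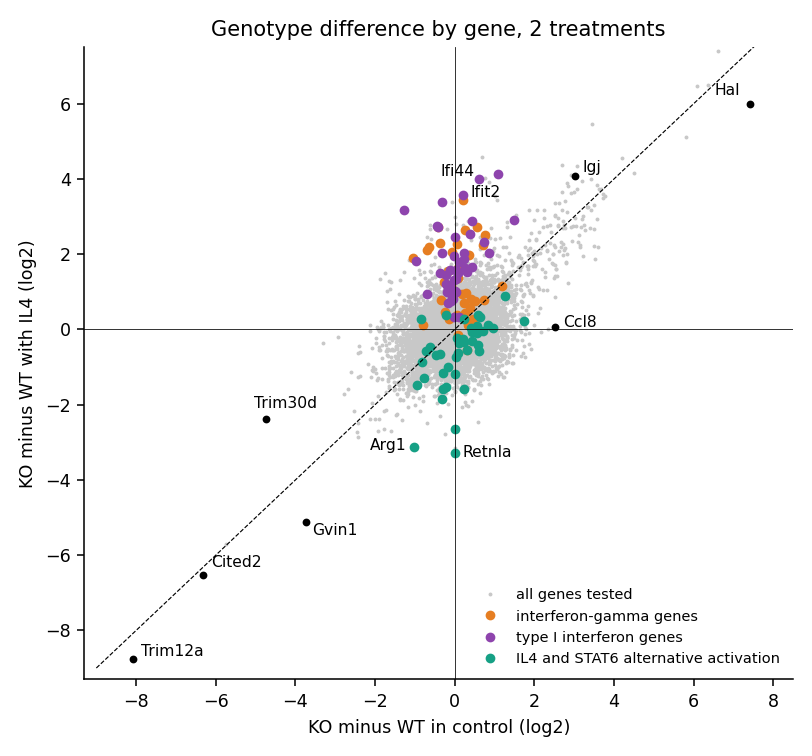
Log2 difference between KO and WT cells in control (horizontal) and with IL4 (vertical), 1 point per gene, with genes of the interferon and alternative activation lists coloured, other labelled genes in black and a dashed line where both differences are equal. Ifi44, Slfn1 and Ifit2 lie high with IL4, at 3.99, 4.12 and 3.58.

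Metabolic lists differed in how many members passed, beside 6.14% of all genes higher and 3.14% lower. Of 44 genes of the HIF-1 and glycolysis list 2 were higher and 2 lower, 4.55% each, near the shares of all genes (median -0.15). At an unadjusted p below 0.05 in limma 5 were higher and 13 lower. Among those past the threshold were Vegfa, the vascular growth factor (-0.68), and Pfkfb3, a regulator of glycolysis (0.40). Of 12 HIF subunits and regulators 0 passed the threshold in limma, with 2 higher and 3 lower at an unadjusted p below 0.05; edgeR called 1 higher and 2 lower, and DESeq2 1 and 1. Of 44 nuclear oxidative phosphorylation genes 1 was lower. Of 31 tested cholesterol and fatty acid synthesis genes 3 were lower, with Fasn, the fatty acid synthase, at -0.62; its call did not hold without KO IL4 replicate 1. Of 26 tested TCA cycle and itaconate genes 2 were higher, and Irg1, which makes itaconate, differed by 1.05. The serine and ATF4 list had 6 of 21 higher (28.6%), such as Slc7a11, the cystine transporter (0.84), and 1 lower. Of 22 NRF2 genes 5 were higher (22.7%) and 1 lower.

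Lipid genes were divided, with 7 of 45 tested members higher (15.6%) and 8 lower (17.8%), against 6.14% and 3.14% of all genes tested. Dgat2, which makes triglycerides, had 96.3, 98.2 and 98 normalised read counts in KO IL4 and 5.19, 4.58 and 7.54 in WT IL4 libraries, the largest rise of the list (3.89 ± 0.31, adjusted p = 1.6e-09). The fatty acid carriers Fabp5 (0.58) and Fabp4 (0.39) were higher. Lower were the desaturases Scd1 (-0.78) and Scd2 (-0.70), Lpl (-0.61), the lipoprotein lipase, and Srebf1 (-0.54), the lipogenic transcription factor.

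Lysosomal genes were higher in 15 of 37 members (40.5%) and lower in none, by at most 0.50, against 6.14% and 3.14% of all genes tested. At an unadjusted p below 0.05 in limma 2 were lower, and edgeR called 1 lower and DESeq2 0. The proteases Ctsh (0.50), Ctss (0.39) and Ctsd (0.36) and the cholesterol carrier Npc2 (0.47) were among them, and Ctsd did not pass with the spread taken from these groups alone (adjusted p = 0.057). In control KO cells were higher in 12 of these genes and lower in 3 (background 4.11% and 3.05%), and that comparison has its own libraries. Among matrix genes, 3 of 30 were higher and 8 lower. Mmp12, macrophage elastase, had 43226, 40430.3 and 43614 in KO IL4 and 13031, 13546 and 12967 in WT IL4 libraries (1.69 ± 0.07). Plau, the urokinase gene (-0.77), and Adam8, a membrane protease (-0.99), were lower.

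Lists of scavenger receptor, macrophage identity and antigen presentation genes held falls and rises, beside 6.14% of all genes tested higher and 3.14% lower. The haemoglobin receptor Cd163 (-2.27), the secreted protein gene Cd5l (-1.39) and the scavenger receptor Stab1 (-1.17) were lower, within 6 lower and 5 higher of 32 tested lectin and scavenger receptor genes. The complement genes C1qa (-1.07), C1qc (-0.88) and C1qb (-0.78) were lower, in a macrophage identity list with 7 higher and 6 lower of 33. Fcgr1, the high-affinity IgG receptor, was higher (0.94). In the MHC class II list 3 of 19 tested were higher and 4 lower. The lower ones were the class II genes H2-Eb1 (-0.59), H2-Ab1 (-0.48) and H2-Aa (-0.40) and the invariant chain Cd74 (-0.44). The class I gene B2m, beta-2-microglobulin, was higher (0.60). The MHC class II list's sums were 298932 to 304496 in KO IL4 and 244370 to 253690 in WT IL4 libraries, without overlap. In control this list had 2 higher and 9 lower members (background 4.11% and 3.05%). The lectin and scavenger receptor list had 4 higher and 10 lower members in control, and the macrophage identity list 11 and 9.

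Chemokine receptors, chemokines and iron genes each held changes in both directions, beside 6.14% of all genes tested higher and 3.14% lower. Ccr2, the receptor that brings monocytes to tissue, was lower (-1.50), and Fpr2, a formyl peptide receptor, was higher (1.58), among 4 higher and 5 lower of 21. The chemokine list had 5 higher and 3 lower of 23 tested. The iron exporter ferroportin, Slc40a1, was higher (1.67), whereas Tfrc, the transferrin receptor, was lower (-0.72), in a list with 2 higher and 4 lower of 19. Of 26 immediate early genes 1 was higher and 6 lower, with Fos at -1.36. Of 40 cell cycle genes 2 were lower (5%, near the share of all genes), one of them Ccnd1, cyclin D1 (-1.40).

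Some of the largest differences lay outside these programmes and were also present without IL4. Hal (ENSMUSG00000020017, chromosome 10, 93488768 to 93519304, plus strand), the histidine-degrading enzyme, had 522, 503 and 576 normalised read counts in KO IL4 and 6.34, 5.15 and 12.2 in WT IL4 libraries (5.99 ± 0.32, adjusted p = 8.8e-13). In control it averaged 1896 ± 89.3 in KO and 10.3 ± 2.62 in WT cells (SD, n = 3 each). Amdhd1, a later enzyme of histidine breakdown, had no read in WT IL4 libraries and was at least 19.1-fold higher in KO, against a floor of 3 reads over the WT group. Clic5, a chloride channel family gene, had 1195, 1016 and 1126 in KO IL4 and 97.4, 97.3 and 106 in WT IL4 libraries (3.45 ± 0.08).

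A cluster of Trim genes on chromosome 7, which encode ubiquitin ligases of antiviral defence, held opposite changes, with 5 higher and 4 lower of 14. These were 35.7% and 28.6%, against 6.14% and 3.14% of all genes tested. Trim12a (ENSMUSG00000066258, chromosome 7, 104299894 to 104315466, minus strand) had no read in KO IL4 libraries and 399.5, 432 and 480.5 normalised read counts in WT IL4 libraries, at least 608-fold lower in KO against a floor of 3 reads over the KO group. Trim5 had 5.32, 1.30 and 3.19 in KO IL4 and 203, 187 and 229 in WT IL4 libraries (-5.71 ± 0.44). Trim30d, which averaged 24.1 ± 12.3 in KO control and 610.3 ± 76.1 in WT control cells (SD, n = 3 each), had 172, 148 and 164 in KO IL4 and 800.2, 844 and 881 in WT IL4 libraries (-2.38 ± 0.23). Trim34b (4.35) and Trim30a (1.13) were higher. These genes are paralogs, some of them close copies, and how reads of copies were shared is not given in the sources used here. In the window of chromosome 7 from 100000001 to 105000000 (GRCm38), 23 of 72 tested genes (31.9%) passed the threshold, 9 higher and 14 lower, against a median of 8.70% over 346 windows. Gvin1, which lies further along chromosome 7 and encodes a giant GTPase induced by interferon, had no read in KO IL4 libraries and 26.5, 32 and 44.3 in WT IL4 libraries, at least 47.6-fold lower.

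Immunoglobulin segments were higher in KO IL4 cells in 69 of 178 tested and lower in none, a list added after the values were seen. Of all genes tested 6.14% were higher and 3.14% lower. In control the segments were higher in 77 and lower in 1 (background 4.11% and 3.05%). Igha, the constant region of IgA, had 1262, 1431 and 1361 normalised read counts in KO IL4 and 86.5, 99 and 93.3 in WT IL4 libraries (3.85 ± 0.13). Igj, the joining chain of secreted IgA and IgM, had 621, 540.0 and 561 in KO IL4 and 43.8, 37.2 and 21.7 in WT IL4 libraries (4.08 ± 0.18). Defining markers of B cells were low. Ms4a1, which encodes the surface protein CD20, had 3.55, 1.30 and 2.13 in KO IL4 and 0.576, 2.29 and 0 in WT IL4 libraries, with overlap. Cd79a, a chain of the B cell receptor, had 4.14, 3.25 and 3.19 in KO IL4 libraries and no read in WT IL4 libraries. Of the B cell list, 2 of 10 tested B cell genes were higher and 0 lower (3 and 0 at an unadjusted p below 0.05). The sums of the B cell list were 909 to 977 in KO IL4 and 752 to 847 in WT IL4 libraries. The part of B cells or plasma cells in the immunoglobulin values was not tested. The segments are near-identical in parts, so single members are uncertain.

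Markers of other cells differed in both directions, beside 6.14% of all genes tested higher and 3.14% lower. Of 17 tested neutrophil and granulocyte precursor genes 5 were lower and 0 higher (median -0.65), with S100a9, a calcium-binding protein of neutrophils, at 92.2, 105 and 88.4 in KO IL4 and 257, 215 and 206 in WT IL4 libraries (-1.24 ± 0.11). Their sums were 5833 to 6195 in KO IL4 and 5627 to 5954 in WT IL4 libraries. Of 11 monocyte genes 2 were higher, led by Ms4a4c (3.38 ± 0.13), and 2 lower. The monocyte sums were 11787 to 13083 in KO IL4 and 17060.4 to 17511 in WT IL4 libraries. Of 8 plasma cell genes 3 were higher (37.5%) and 0 lower, namely Igj under its other name Jchain, the transcription factor gene Prdm1 (0.51) and the surface proteoglycan gene Sdc1 (0.46), with sums of 10479 to 10977 in KO IL4 and 8545 to 8638 in WT IL4 libraries. Of 17 T and NK cell genes 1 was higher (5.88%, near the share of all genes) and 0 lower. Their median log2 difference was 1.00, with sums of 89.8 to 109 in KO IL4 and 54.6 to 62.4 in WT IL4 libraries. In 12 of the 17 both IL4 group means were below 5 normalised read counts, so that median rests on few reads. Of 5 tested eosinophil genes the sialic acid receptor gene Siglecf was higher (0.89) and the chemokine receptor gene Ccr3 was lower (-1.20), with sums of 916 to 1007 in KO IL4 and 571 to 605 in WT IL4 libraries. Dendritic cell and fibroblast lists had 1 and 0 higher and 0 and 1 lower members. Mast cell and erythroid lists had 0 in either direction by limma, with 2 and 1 lower at an unadjusted p below 0.05; edgeR and DESeq2 each called 1 mast cell gene lower and 0 erythroid genes. The part of these cells in the other results was not tested.

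Whether the genotype difference was itself altered by IL4 was tested directly. The difference with IL4 exceeded that in control in 457 genes (2.45%) and fell short of it in 215 (1.15%), 672 in all (3.61%), and with median centring of the libraries in 396 and 309. Of the 45 type I interferon genes, 43 had a more positive difference with IL4 and 0 a more negative one, and in the IFNg list the counts were 25 and 0. Ifit3 averaged 206 ± 21.4 in KO control and 265 ± 74.7 in WT control cells (SD, n = 3 each), and its difference with IL4 exceeded that in control by 3.73 ± 0.16 on the log2 scale (adjusted p = 2.6e-13). Irf7 exceeded it by 2.16, and Ifi44 by 3.39. Trim25 and Parp10 were the 2 exceptions, both positive at an unadjusted p below 0.05.

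Beyond the interferon genes, 15 of 45 inflammatory genes had a more positive difference with IL4 and 0 a more negative one (background 2.45% and 1.15%). Nos2 averaged 7.58 ± 1.18 in KO control and 21.5 ± 15.8 in WT control cells (SD, n = 3 each), and its difference with IL4 was larger by 2.99. Tnf (1.19) and Tlr2 (1.30) were also more positive. For the alternative activation list 1 gene was more positive and 11 were more negative. Retnla (-3.29) and Rnase2a (-2.66) were among the 11, although neither held a read in control and edgeR called neither (adjusted p = 1.00). So were genes whose difference was positive in control, such as Flt1 (-1.51), a receptor of vascular growth factors, and Egr2 (-0.92), a zinc-finger transcription factor. Arg1 gave -2.08 (adjusted p = 0.1). Set against the mean of control, LPS and IFNg, the IL4 difference was more positive in 685 genes (3.68%) and more negative in 356 (1.91%), 1041 in all (5.59%), against 552 and 491 with median centring. Without centring, 44 type I interferon genes were more positive and 19 alternative activation genes more negative.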

How the data were processed

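RNA sequencing of cultured bone marrow-derived macrophages gave 24 libraries in 8 groups. The deposited table held a signal, which from the values is the gene read count divided by 1 size factor per library: whole reads were recovered within a tolerance of 0.05 reads for 100% of values. TopHat2 2.2.1, Cufflinks 2.2.1 and Cuffdiff and mouse build mm10 (GRCm38) are named per the submitters' processing notes. The counting method and strand setting are not given in the sources used here, so overlapping and antisense genes cannot be told apart. GENCODE M21 annotated 42462 of 43629 genes.

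The main test was limma 3.58.1 (R 4.3.3) on log2 of the value plus 1, over all 24 libraries with 1 mean per group and a mean-variance trend, for the 18637 genes that reached 1 in 3 or more libraries. A gene passed at a Benjamini-Hochberg adjusted p below 0.05. Differences are KO minus WT, and fold changes of low genes are understated by the added 1. Differences from all-zero groups are given as bounds against 3 reads over the group, which cover counting error only. edgeR 4.0.16 (TMM, quasi-likelihood) and DESeq2 1.42.0 were run on the recovered reads as alternatives, with other pseudocounts, filters, scaling, weights, blocks and left-out libraries. The fit was tested on simulated data. Within groups of IL4 libraries no pair was a duplicate (chi-square per degree of freedom of at least 3.01).

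Named genes were the largest changes, the members of each list with the smallest p, preset IL4 markers and the largest changes of the difference between treatments; others named in the text were chosen after their values were seen. Members and lists were chosen with earlier results of these data known. Some list members are counted but not reported singly here. Promoters came from RefSeq GRCm38.p6, 1 window per symbol, the one nearest the GENCODE start.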

Additional observations from a re-analysis of the deposited data

Results flagged for a closer look

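The genotype difference changed with treatment in 672 genes when IL4 was set against control and in 1041 genes when IL4 was set against the mean of control, LPS and IFNg, each by a test of the difference itself. Against control, the differences that became more positive with IL4 were 3.73 for Ifit3, 3.44 for Ms4a4c, 3.41 for Ly6a, 3.39 for Ifi44, 3.37 for Ifit2 and 3.34 for Pydc4 on the log2 scale. Those that became more negative were -3.29 for Retnla, -3.14 for Kcnd3, a potassium channel gene, -3.05 for Cldn11, which encodes a claudin, -2.66 for Rnase2a, -2.46 for the chemokine Ccl8 and -2.0 for St8sia1, a sialyltransferase gene. Ccl8 averaged 417 ± 64.5 in KO IL4 and 395 ± 28.1 in WT IL4 cells, and 253 ± 12.4 in KO control and 43.3 ± 5.66 in WT control cells (SD, n = 3 each), so its genotype difference lay in control.

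Against the mean of the other treatments, the more positive differences were 3.07 for Ifi44, 3.06 for Ms4a4c, 3.02 for Slfn1, 3.00 for Pydc4, 2.97 for Ifit3 and 2.9 for Ifit2. The more negative were -3.37 for Retnla, -2.99 for Kcnd3, -2.66 for Cldn11, -2.61 for Rnase2a, -1.83 for Il31ra and -1.76 for Edn1, the endothelin 1 gene. Retnla, Kcnd3 and Rnase2a had no read in control libraries of either genotype, so a ratio of genotypes could not be measured there.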

How the results depend on the processing

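No named gene past the threshold changed sign in any alternative, whereas Il4ra, which did not pass, ran from -0.08 to 0.04 when 1 library was left out. Of 151 named genes past the threshold between KO IL4 and WT IL4 cells, 130 passed in every one of the 17 alternatives and 21 were lost in at least one. Of the 1731 genes, 1731, 1660 and 1670 passed in the same direction with library weights, edgeR and DESeq2, which called 4035, 2862 and 2735 (with weights 2339 higher and 1696 lower, with edgeR 1189 lower, with DESeq2 1054 lower). For IL4 against control differences, weights called 2338 (1346 positive, 992 negative), DESeq2 1169 (710 and 459), edgeR 515 positive and 410 negative, the groups of the comparison alone 345 negative, and median centring 396 positive and 309 negative, against 457 and 215. Against the mean of the other treatments, weights called 2445 (1445 and 1000), DESeq2 1752 (1092 and 660), edgeR 582 negative and median centring 552 and 491, against 685 and 356. A pseudocount of 10 left 485 genes raised and 263 lowered by IL4. Alternative activation genes lower in KO numbered 17 with that pseudocount, 19 with the groups alone, 19 with weights, 22 with edgeR and 18 with DESeq2. Lysosomal genes lower numbered 1 with the groups alone, centring or edgeR and 5 with weights, and IFNg genes lower 1 with a pseudocount of 10, weights, edgeR or DESeq2. The causes were not tested. Between KO IL4 and WT IL4 cells, median centring moved log2 differences by -0.03. TMM scaling moved them by 0.01 over genes with a mean value of at least 50. Shifts for the changes of the genotype difference between treatments are not reported here.

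Leaving out 1 library gave 1241 to 2384 genes between KO IL4 and WT IL4 (847 to 1508 higher, 376 to 876 lower). The 376 lower came without WT IL4 replicate 3, and the highest counts without the shallow KO LPS replicate 1. The counts were 514 to 900 (368 to 579, 146 to 321) against control and 749 to 1435 (501 to 904, 238 to 531) against the other treatments. IL4 raised 676 to 793 and lowered 464 to 578. Type I interferon genes higher numbered 44 to 45, IFNg genes 28 to 31, lysosomal genes 11 to 15, inflammatory genes 15 to 17 with 2 to 3 lower, lipid genes 7 with 5 to 8 lower, lectin and scavenger receptor genes 4 to 7 with 3 to 7 lower, macrophage identity genes 4 to 7 with 5 to 7 lower, so that these 3 lists can turn in balance, and alternative activation genes lower 10 to 13 with 5 higher.

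The replicate block gave 1098 higher and 546 lower genes, 422 and 190 against control, and 626 and 321 against the other treatments, and changed no count by over 1.5 times. Deviations of same-numbered IL4 libraries correlated at 0.0469, -0.129 and 0.0858, and those of unlike numbers at -0.169 to 0.146. With 3 libraries a group these values cannot decide if the numbers pair the samples, which the labels do not state. Depth limits genes near 3 reads over a group, a value of 0.72 in KO IL4 and 0.66 in WT IL4 cells.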
